A study of Mus musculus with 13 samples.

Results

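The genes described here encode Polycomb proteins, histone deacetylases, histone demethylases, histone and arginine methyltransferases and SWI/SNF or ISWI remodelling subunits, followed through chemical reprogramming of mouse fibroblasts. They were taken by symbol: rows beginning with Hdac, Sirt, Kdm, Cbx, Phc, Pcgf, Ezh, Setd or Prmt and a number, rows beginning with Smarc, and Eed, Suz12, Ring1, Rnf2 and Bmi1. The rule gave 86 of the 15176 genes in the RNA-seq table. By role they were 16 subunits of Polycomb repressive complex 1 (PRC1), 4 core subunits of Polycomb repressive complex 2 (PRC2), 3 heterochromatin proteins (HP1), 10 classical deacetylases, 7 sirtuins, 16 demethylases, 9 SET-domain genes, 8 arginine methyltransferases and 13 remodelling subunits.

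PRC2 places the repressive methyl mark on lysine 27 of histone H3 through Ezh2 or Ezh1, with Eed and Suz12 needed for activity. Canonical PRC1 reads that mark through a Cbx protein, carries a Phc protein and a Pcgf protein, and ubiquitinates histone H2A through Ring1 or Rnf2; in embryonic stem cells the pair holds developmental genes silent. Deacetylases remove acetyl groups left by acetyltransferases, and Kdm enzymes erase methyl marks on lysines. In the published naming of these compounds, V is valproic acid, which inhibits class I deacetylases, T is tranylcypromine, which inhibits Kdm1a, and Z is DZNep, which lowers Ezh2 protein and histone methylation; C (CHIR99021), 6 (a TGF-beta receptor inhibitor) and F (forskolin) act on other pathways.

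The starting cells were untreated mouse embryonic fibroblasts (MEF) of a C57xICR cross, in 3 libraries. Cells of the same cross under VC6TF that lacked an Oct4-GFP reporter signal (GFP- cells) gave 2 libraries. Cells that showed the signal under VC6TF+Z gave 1 library of clusters and 1 of colonies, all 3 kinds having been picked before RNA isolation. Embryonic stem cells (ESC) were the R1 line of strain 129, untreated, in 4 libraries, and 2 chemically induced lines (CiPSC lines 6 and 11, VC6TFMB+Z, C57xICR) gave 1 library each. ESC and CiPSC were kept on mitomycin C-treated MEF feeders, R1 is 1 line, and strain cannot be told apart from cell type between ESC and MEF. No label says that libraries of a group came from separate cultures, so p-values measure the spread between these libraries, which may be technical. In bulk RNA, fewer cells with a transcript and less transcript per cell cannot be told apart.

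Values are RPKM, reads scaled to gene length and library depth. In 10 libraries the kilobases are those of the whole gene span, so levels of different genes are compared only after rescaling to exonic length. The rescaling cannot separate reads in introns from reads in exons, so the order of genes it gives is approximate. ESC replicate 4 and both CiPSC lines follow another length scale, close to exonic length, and their levels are compared only with one another. The CiPSC lines still add to the pooled spread behind all p-values, and these libraries count toward the filter on low values. Depth recovered from the steps of low values was 8.89 to 17.7 M reads (M, 1e6), lowest in clusters and highest in MEF 2, in the 10 gene-span libraries. The summed RPKM of 7 fibroblast markers was 730 to 2718 in MEF, 282 to 340 in GFP- cells, 235 in clusters, 48.7 in colonies and 23.4 to 39.1 in ESC. The sum of 8 pluripotency markers was at most 2.14 in MEF, 1.78 in GFP- cells and 1.299 in clusters, against 648 in colonies and 895 to 1068 in ESC. In the library labelled GFP+ clusters the reporter's own gene Pou5f1 was at 0.26 RPKM, so the label is not borne out by these markers. In colonies Pou5f1 was at 124 RPKM and Dppa5a at 513 RPKM, but Nanog at 0.04 and Sox2 at 2.80 RPKM, and 5 extraembryonic endoderm markers summed to 171 against at most 13.4 in every other gene-span library. The MEF 3 library carried macrophage markers at a summed 239 RPKM against 19.8 and 30.4 in MEF 1 and MEF 2. MEF 3, colonies and ESC 3, called the library set below, held values of 0.001 where the other gene-span libraries held 0. Their RPKM summed to 119415, 164054 and 142311, against 67647 to 80708 in the other gene-span libraries. The labels do not explain this, and colonies against clusters crosses it.

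Of the 86 genes, 77 reached 1 RPKM in at least 2 libraries and were tested with 10647 genes in all. The 9 that did not were Hdac8, Hdac9, Hdac11, Kdm4d, Kdm5d, Prmt8, Sirt5, Smarca1 and Smarca2. Of the 77, 9 passed only with the help of the exonic-scale libraries. Among these, 5 lay below 1 RPKM in every gene-span library, so no call was possible for them in the gene-span comparisons. A gene is called when limma's adjusted p is under 0.05 and the change in log2(RPKM + 1) is at least 1; this scale understates changes of genes near or below 1 RPKM, where many of these genes lie.

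Between MEF and ESC, 13 of the 77 genes rose (16.9%, against 7.95% of all genes tested) and 3 fell (3.90%, against 7.97%). The median change was 0.44 on the log2 scale, against 0.14 over all genes. Phc1, Cbx7, Pcgf6, Suz12, Eed, Cbx1, Cbx5, Hdac1, Hdac6, Kdm3a, Kdm5b, Prmt5 and Setd6 were the genes that rose, and Cbx8 and Hdac7 were among those that fell. With a pseudocount of 0.1, 23 rose (13.5% of all genes) and 5 fell (10.8% of all genes). The 12 proliferation markers moved in the same comparison, with 7 called higher and summed levels of 51.8 to 80.9 RPKM in MEF and 172 to 213 in ESC; their part in the result was not tested.

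**Figure D1:**
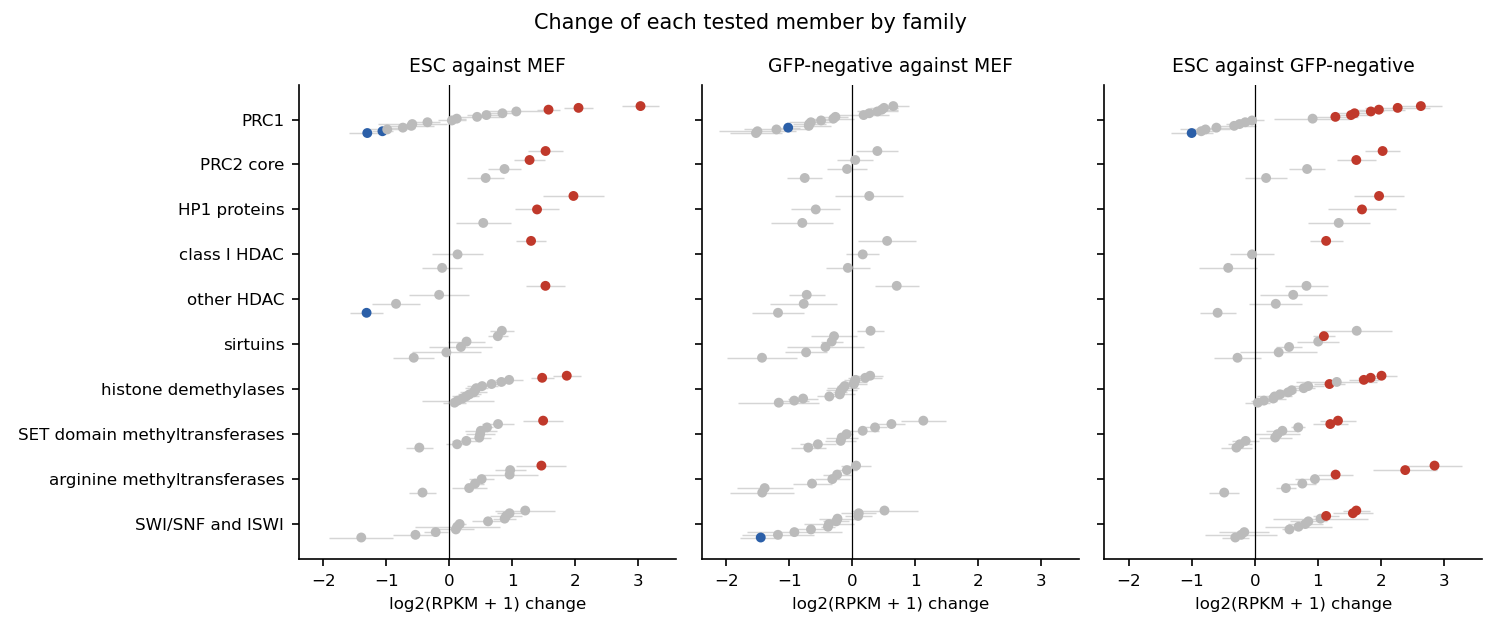
Change in log2(RPKM + 1) of each of the 77 tested genes (points, with the standard error as a bar) by family, in 3 comparisons; red points were called higher, blue points lower and grey points were not called. Phc1 is the rightmost PRC1 point of the left panel at 3.04, and the middle panel has 2 blue points, Cbx8 and Smarcb1.

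PRC1 held the clearest exchange between related subunits. Phc1, a Polyhomeotic protein that lets PRC1 particles join through its SAM domain, was at 1.22, 0.67 and 1.73 RPKM in MEF 1 to 3 and at 18.4, 18.7 and 13.6 RPKM in ESC 1 to 3. All ESC libraries lay above all MEF libraries, from 3100 to 5568 recovered reads against 269 to 378. The means were 16.9 ± 2.88 and 1.21 ± 0.53 RPKM (SD, n = 3 each), 14.02-fold apart, with a log2 change of 3.04 ± 0.30 (SE, adjusted p = 0.000255). Its paralog Phc2 was at 1.09, 0.62 and 0.95 RPKM in MEF and at 0.02, 0.09 and 0.28 RPKM in ESC. The groups did not overlap, but the log2 change of -0.74 ± 0.19 (adjusted p = 0.0215) was under the minimum size for a call. Rescaled to exonic length, Phc1 was the most abundant PRC1 gene in ESC (72.9 RPKM, before Rnf2 at 33.3), whereas in MEF the means of Rnf2 (13.8 RPKM) and Phc2 (12.3 RPKM) lay within the spread of the libraries.

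Cbx7, the chromodomain subunit typical of stem cell PRC1, was nearly silent in MEF at 0.05, 0.02 and 0.04 RPKM and stood at 3.09, 3.36 and 3.44 RPKM in ESC. The groups were far apart, with 15 to 32 reads against 1902 to 2261. The log2 change was 2.05 ± 0.23 (SE, adjusted p = 0.000559). Cbx8, another chromodomain subunit, went the other way, from 1.52, 0.91 and 1.63 RPKM in MEF to 0.02, 0.00 and 0.36 RPKM in ESC. These values did not overlap, and rest on 73 to 84 reads in MEF and 1, 0 and 17 in ESC. The log2 change was -1.06 ± 0.17 (adjusted p = 0.00311); it was -0.99, -0.98 and -0.97 without ESC 1, ESC 2 or MEF 3, just under the minimum size, with adjusted p of 0.0155, 0.0149 and 0.00911. Cbx2, a compacting subunit, overlapped between the groups, at 4.94, 1.37 and 1.49 RPKM in MEF and 2.24, 4.65 and 3.79 RPKM in ESC.

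The windows upstream of Phc1, Cbx7 and Cbx8 are shown because these genes carry the exchange. They are the 250 bases before the RefSeq start on build GRCm38.p6, minus strand, written 5′ to 3′: chr6:122340228-122340477 for Phc1, chr15:79932647-79932896 for Cbx7 and chr11:119040914-119041163 for Cbx8. Capitals mark matches on either strand to 5 motifs: the cyclic AMP response element TGACGTCA, the octamer ATTTGCAT, the E2F site TTTGGCGC, the GC box GGGCGG and the CCAAT box CCAAT.
Phc1: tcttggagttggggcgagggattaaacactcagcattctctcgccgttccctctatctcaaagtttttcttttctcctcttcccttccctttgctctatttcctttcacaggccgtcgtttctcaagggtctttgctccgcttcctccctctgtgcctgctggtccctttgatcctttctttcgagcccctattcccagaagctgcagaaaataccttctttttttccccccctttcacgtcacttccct
Cbx7: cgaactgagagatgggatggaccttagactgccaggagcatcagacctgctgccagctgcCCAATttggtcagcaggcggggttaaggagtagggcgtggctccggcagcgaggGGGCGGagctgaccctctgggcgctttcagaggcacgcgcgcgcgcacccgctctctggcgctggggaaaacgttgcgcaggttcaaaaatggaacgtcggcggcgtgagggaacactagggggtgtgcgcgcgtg
Cbx8: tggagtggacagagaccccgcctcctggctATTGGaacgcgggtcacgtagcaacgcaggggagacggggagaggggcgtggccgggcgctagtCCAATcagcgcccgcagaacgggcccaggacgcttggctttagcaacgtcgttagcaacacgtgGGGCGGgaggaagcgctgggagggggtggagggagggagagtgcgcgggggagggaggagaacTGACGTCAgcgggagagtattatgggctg
Phc1 had no match in this window, 49.6% G or C bases and 8 CpG dinucleotides. Cbx7 had 1 GC box, 1 CCAAT box, 64.8% G or C and 23 CpG. Cbx8 had 1 response element, 1 GC box, 2 CCAAT boxes, 66.4% G or C and 22 CpG. Over all 32851 promoter entries, 1.55% held the response element, 1.60% the octamer, 0.417% the E2F letters, 32.7% the GC box and 33.9% the CCAAT box, with a median of 52.4% G or C and 6 CpG. A match describes letters only, and 73 of the 86 genes had an entry.

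Pcgf6, the Pcgf subunit of a noncanonical PRC1 found in germline gene repression, rose from 0.24, 0.54 and 0.52 RPKM in MEF to 3.54, 3.08 and 3.16 RPKM in ESC. The ESC values lay close together and above all MEF values, with a log2 change of 1.58 ± 0.18 (SE, adjusted p = 0.000592). Bmi1 (Pcgf4), the canonical subunit that restrains the Ink4a/Arf locus, was at 3.57, 4.59 and 1.54 RPKM in MEF and 1.502, 2.38 and 1.18 RPKM in ESC, with overlap and no call (-0.60 ± 0.36). Rnf2, the main ubiquitin ligase of the complex, was at 1.39, 1.61 and 0.99 RPKM in MEF and 3.83, 3.43 and 2.34 RPKM in ESC. Its log2 change of 0.84 ± 0.23 (adjusted p = 0.0317) was under the minimum size. The paralog ligase Ring1 overlapped widely, at 1.11, 1.39 and 6.18 RPKM against 1.08, 0.19 and 3.29 RPKM.

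**Figure D2:**
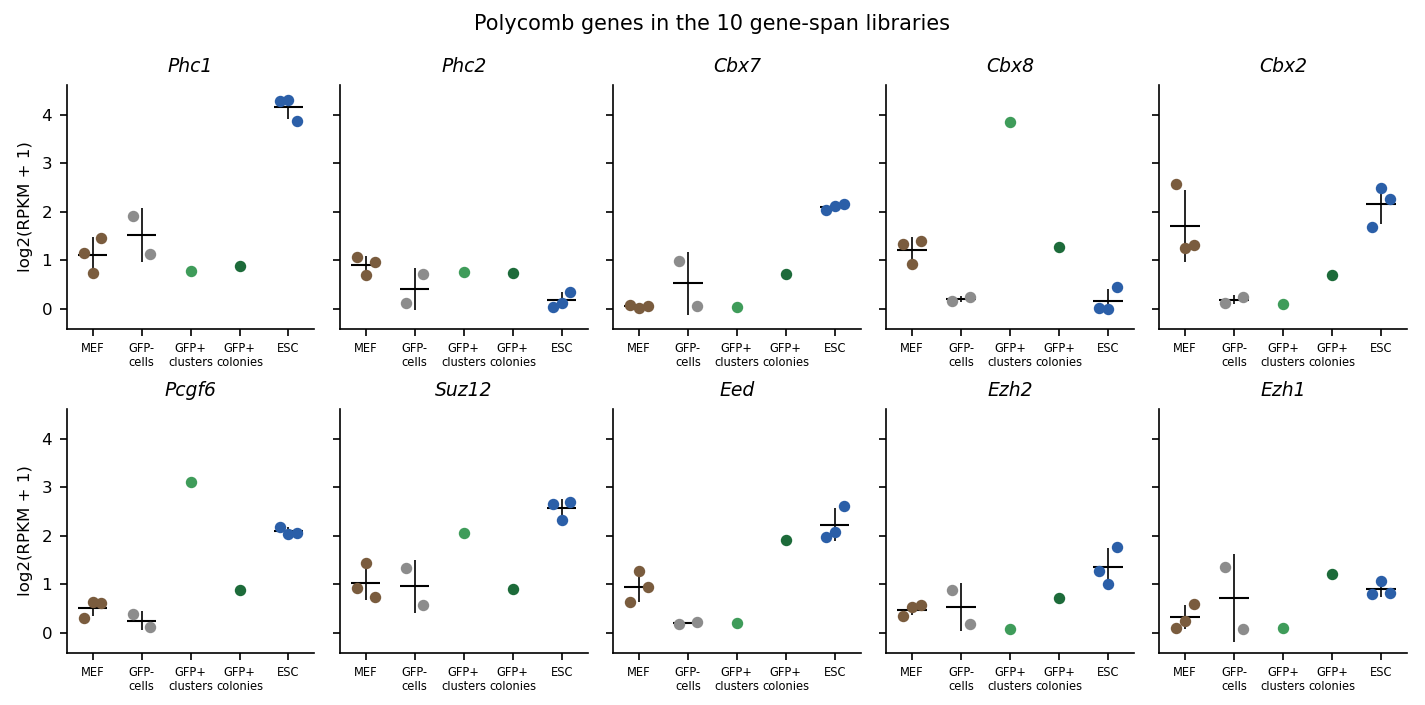
log2(RPKM + 1) of 10 Polycomb genes in the 10 gene-span libraries; each point is 1 library, with a bar at the mean and a line of 1 SD where a group has more than 1 library. Phc1 and Cbx7 are high in all 3 ESC libraries and low in colonies, while Cbx8 and Pcgf6 peak in the 1 library of clusters at 13.5 and 7.63 RPKM.

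Among the core subunits of PRC2, Suz12, which holds the complex together, was at 0.89, 1.71 and 0.68 RPKM in MEF and at 5.31, 4.02 and 5.498 RPKM in ESC. The groups did not overlap and the log2 change was 1.53 ± 0.28 (SE, adjusted p = 0.00559). Eed, which binds the methyl mark, rose from 0.54, 1.42 and 0.92 RPKM to 2.94, 3.22 and 5.13 RPKM, with a log2 change of 1.27 ± 0.25 (adjusted p = 0.00744). Ezh2, the main methyltransferase, was at 0.26, 0.43 and 0.48 RPKM in MEF and 1.41, 1.02 and 2.42 RPKM in ESC. All ESC libraries were above all MEF libraries, yet the log2 change of 0.88 ± 0.26 (adjusted p = 0.0395) was under the minimum size; without ESC 2 it was 1.05 (adjusted p = 0.0384), and with a pseudocount of 0.1 it was called at 1.74. Ezh1, the weaker enzyme, was at 0.08, 0.19 and 0.51 RPKM in MEF and 0.73, 1.11 and 0.77 RPKM in ESC, with a log2 change of 0.58 ± 0.30 (adjusted p = 0.196). So Suz12 and Eed were called, and both methyltransferase genes were not.

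The HP1 genes Cbx1 and Cbx5, whose proteins bind methylated lysine 9 of histone H3 in heterochromatin, were also called. Cbx1 was at 1.52, 3.01 and 2.88 RPKM in MEF and 14.01, 13.9 and 9.59 RPKM in ESC (log2 change 1.97 ± 0.49, adjusted p = 0.0199). Cbx5 was at 5.23, 3.67 and 2.23 RPKM in MEF and 13.5, 13.5 and 7.08 RPKM in ESC (log2 change 1.39 ± 0.35, adjusted p = 0.0217). Neither gene overlapped between the groups. Leaving out ESC 1, ESC 2 or MEF 1 ended the call of Cbx1 (1.89, 1.89 and 1.76, adjusted p of 0.0631, 0.0625 and 0.0725). Leaving out ESC 1, ESC 2, MEF 2 or MEF 3 ended that of Cbx5 (1.25, 1.25, 1.41 and 1.15, adjusted p of 0.0729, 0.0710, 0.0597 and 0.0551).

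The class I deacetylases, targets of valproic acid, did not move as a block. Hdac1, the catalytic subunit of several corepressor complexes, rose from 0.73, 0.94 and 0.98 RPKM in MEF to 2.92, 3.11 and 5.14 RPKM in ESC. The groups did not overlap, with a log2 change of 1.298 ± 0.23 (SE, adjusted p = 0.00527). Its close partner Hdac2 was at 1.43, 1.98 and 2.77 RPKM in MEF and 1.78, 0.86 and 3.18 RPKM in ESC (-0.11 ± 0.31), and Hdac3, the enzyme of the NCoR and SMRT complexes, at 2.16, 2.02 and 3.69 RPKM against 2.101, 3.58 and 3.14 RPKM (0.13 ± 0.41). Both overlapped between the groups. Hdac8 was at most 0.11 RPKM in any gene-span library and was not tested. Rescaled to exonic length, the class I order was Hdac2 (12.6 RPKM), Hdac3 (12.4) and Hdac1 (6.83) in MEF and Hdac1 (28.8), Hdac3 (13.9) and Hdac2 (11.8) in ESC; Hdac2 and Hdac3 lay within their spread in both groups. Outside class I, Hdac6, a cytoplasmic tubulin deacetylase, rose from 0.40, 0.58 and 1.43 RPKM to 3.07, 3.12 and 6.65 RPKM (1.53 ± 0.31, adjusted p = 0.00897). Hdac7, a class IIa deacetylase active in endothelium and muscle, fell from 1.46, 1.07 and 2.75 RPKM to 0.01, 0.01 and 0.22 RPKM (-1.31 ± 0.26, adjusted p = 0.00723), again with no overlap for either gene. None of the 6 sirtuins tested was called, against 7.95% of all genes higher and 7.97% lower, and 6 genes are too few to tell these shares from 0. Sirt3, a mitochondrial deacetylase (0.83 ± 0.19, adjusted p = 0.0145), and Sirt1, a nuclear one, were under the minimum size only. Sirt1 was at 0.45, 0.26 and 0.24 RPKM in MEF and 1.60, 1.03 and 1.13 RPKM in ESC (0.77 ± 0.15, adjusted p = 0.0082).

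Of the 14 demethylases tested, 2 rose (7.95% of all genes did) and none was called lower (7.97% of all genes were). Kdm1b, Kdm4b, Kdm4c and Kdm6a stayed below 1 RPKM in every gene-span library, so they could not reach the minimum size. Of these, Kdm4c averaged 0.12 RPKM in MEF and 0.49 RPKM in ESC (log2 change 0.41 ± 0.11, adjusted p = 0.0255). Kdm5b, which removes methyl groups from lysine 4 of histone H3, was at 0.43, 0.70 and 1.12 RPKM in MEF and 6.25, 5.28 and 4.49 RPKM in ESC, 7.11-fold higher (log2 change 1.87 ± 0.22, adjusted p = 0.000734). Kdm3a, a lysine 9 demethylase, was at 0.47, 0.58 and 0.83 RPKM and 4.08, 3.45 and 3.03 RPKM, 5.62-fold higher (1.47 ± 0.18, adjusted p = 0.000787). Both kept a wide gap between all ESC and all MEF libraries. Kdm1a, the lysine 4 demethylase that tranylcypromine inhibits, was at 1.27, 0.92 and 1.32 RPKM in MEF and 2.87, 2.58 and 4.26 RPKM in ESC. These did not overlap, but the log2 change of 0.95 ± 0.22 (adjusted p = 0.0145) was just under the minimum size; it was 1.005 and 1.06 and called without ESC 1 or ESC 2 (adjusted p of 0.0342 and 0.0225). Kdm2b, which brings a noncanonical PRC1 to CpG islands, reached 0.83 ± 0.16 (adjusted p = 0.00705), also under the minimum.

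**Figure D3:**
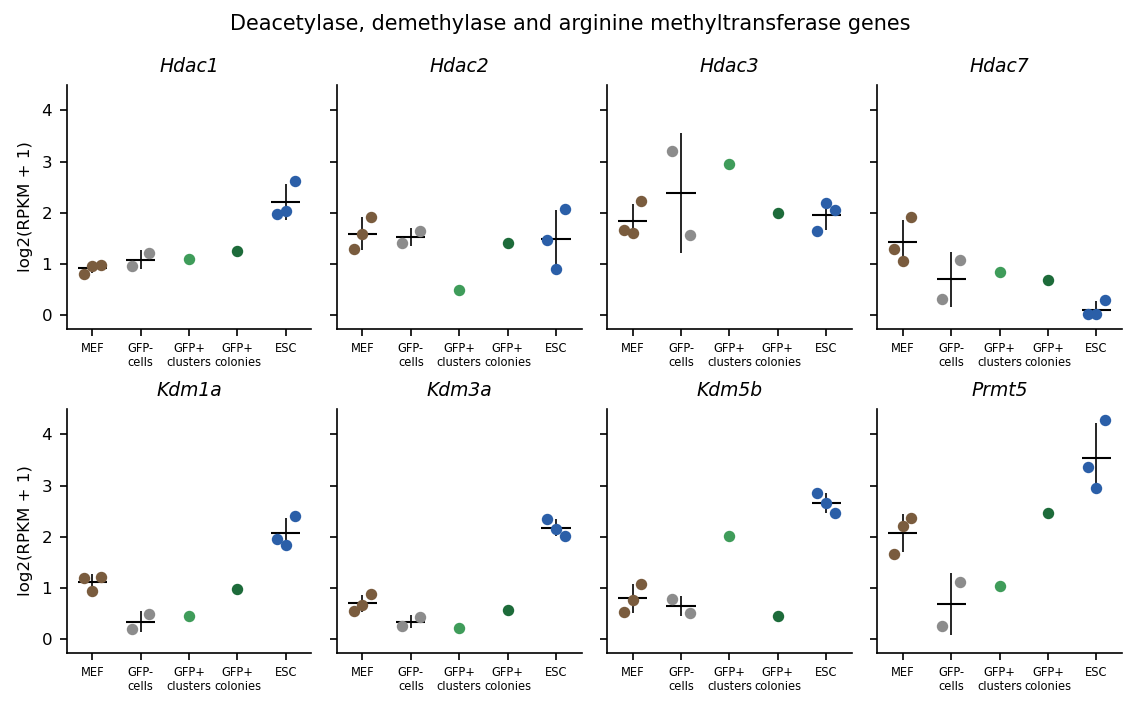
log2(RPKM + 1) of 8 deacetylase, demethylase and arginine methyltransferase genes in the 10 gene-span libraries; each point is 1 library, with a bar at the mean and a line of 1 SD where a group has more than 1 library. Hdac1, Kdm3a and Kdm5b separate ESC from MEF, Hdac2 does not, and Kdm1a and Prmt5 are lower in both GFP- libraries than in every MEF library.

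Among methyltransferases outside PRC2, Prmt5, the symmetric arginine methyltransferase, rose from 2.15, 3.59 and 4.17 RPKM to 9.31, 6.77 and 18.6 RPKM (1.46 ± 0.40, adjusted p = 0.0287). The groups did not overlap, but the call was lost without ESC 1, ESC 3, MEF 1 or MEF 2 (1.55, 1.09, 1.25 and 1.52, adjusted p of 0.0609, 0.0639, 0.0988 and 0.0665). Setd6, which methylates the NF-kappa-B subunit RelA, rose from 6.21, 5.28 and 2.79 RPKM to 19.3, 14.6 and 11.0 RPKM (1.49 ± 0.32, adjusted p = 0.0114). None of the 11 remodelling subunits tested was called in either direction, against 7.95% of all genes higher and 7.97% lower. Of the 11, 6 had an unadjusted p under 0.05 (37.1% of all genes). Smarcc1, the scaffold of stem cell BAF, had a log2 change of 0.96 ± 0.19 (adjusted p = 0.00882), from 1.22, 1.02 and 0.73 RPKM to 3.26, 2.45 and 2.82 RPKM.

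Paralogs were also compared as ratios within a library; because 1 is added to each RPKM value, low pairs are pulled toward 0, and a ratio is read only across the gene-span libraries, not as a ratio of transcripts. Over 16 pairs, on log2(RPKM + 1), the ratio of Phc1 to Phc2 went from 0.21 ± 0.24 in MEF to 3.98 ± 0.40 in ESC (SD, n = 3 each), a difference of 3.77. That of Cbx7 to Cbx8 differed by 3.11, Smarcd1 to Smarcd3 by 2.60 and Pcgf6 to Bmi1 by 2.18. Smarcd1 and Smarcd3 are alternative 60-kDa BAF subunits, the latter typical of heart and brain. Smarcc1 to Smarcc2 differed by 1.49, Hdac1 to Hdac5 by 1.46, Kdm5b to Kdm5a by 1.44, Prmt1 to Prmt2 by 1.38, Sirt1 to Sirt2 by 1.34, Smarca4 to Smarca2 by 0.93, Smarca5 to Smarca1 by 0.82, Kdm2b to Kdm2a by 0.44 and Hdac2 to Hdac1 by -1.41. In all of these the ESC and MEF libraries did not overlap, and each reached the smallest p that an exact two-sided permutation test of 3 against 3 can give, 0.1 (0.114 adjusted over the pairs), so no pair could pass 0.05. Rnf2 to Ring1 (1.43, exact p = 0.3) and Ezh2 to Ezh1 (0.30, exact p = 0.5) overlapped. How often other gene pairs show no overlap was not computed. Phc1, Cbx7, Pcgf6, Hdac1 and Kdm5b were already called singly, so the ratios that hold them add no separate support.

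**Figure D4:**
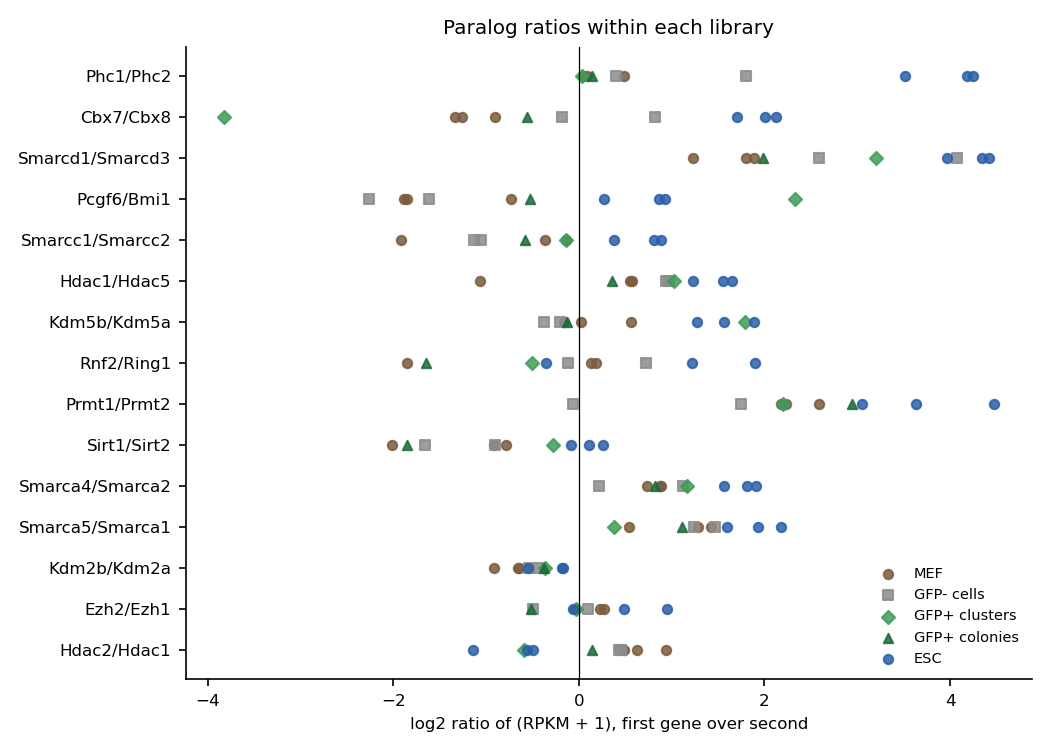
log2 ratio of (RPKM + 1) for 15 of the paralog pairs, first gene over second, in each of the 10 gene-span libraries (1 point a library, coloured and shaped by group). Colonies lie at 0.14 for Phc1 over Phc2, beside MEF, and clusters at -3.82 for Cbx7 over Cbx8, beyond every other library.

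Against MEF, the GFP- cells under VC6TF showed few called changes: no gene rose (3.53% of all genes did) and 2 of 77 fell (2.60%, against 4.09%). An unadjusted p under 0.05 was reached by 21 of the 77, against 25.8% of all genes. Cbx8 fell from 1.52, 0.91 and 1.63 RPKM to 0.12 and 0.19 RPKM, a level near that of ESC (log2 change -1.02 ± 0.19, adjusted p = 0.0142). Smarcb1, the core BAF subunit lost in rhabdoid tumours, fell from 2.65, 1.64 and 3.15 RPKM to 0.29 and 0.21 RPKM (-1.45 ± 0.32, adjusted p = 0.027). Both were below every MEF library, on 6 and 9 reads for Cbx8 and 79 and 55 for Smarcb1. Neither call held when only the gene-span libraries were fitted. The calls are fragile: Cbx8 lost its call without GFP- 1, MEF 1 or MEF 3 (-0.97, -0.96 and -0.93), and Smarcb1 without GFP- 1, GFP- 2, MEF 1 or MEF 3 (-1.49, -1.41, -1.41 and -1.31, adjusted p of 0.0841, 0.0566, 0.0756 and 0.0567). Without GFP- 1 or without MEF 3, 0 genes were called, and without GFP- 2 there were 6, among them Hdac3 at 1.39 (adjusted p = 0.0357).

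Among the targets of the compounds, Kdm1a was low in GFP- cells without passing the rule. It was at 0.14 and 0.39 RPKM, below all MEF libraries (0.92 to 1.32), with a log2 change of -0.78 ± 0.24 (adjusted p = 0.083). Eed was at 0.13 and 0.16 RPKM against 0.54 to 1.42 in MEF (-0.75 ± 0.28, adjusted p = 0.13). The class I deacetylases and Ezh2 were not low as a group, with log2 changes of 0.17 (Hdac1), -0.07 (Hdac2), 0.56 (Hdac3) and 0.05 (Ezh2). With a pseudocount of 0.1, which gives more weight to such levels, 11 genes were called lower and 0 higher, against 8.67% and 4.40% of all genes: Cbx2, Cbx8, Eed, Kdm1a, Kdm4a, Prmt5, Sirt1, Sirt6, Smarcal1, Smarcb1 and Smarcc1. The GFP- libraries differed from each other for Phc1 (2.76 and 1.17 RPKM), Cbx7 (0.97 and 0.05 RPKM), Hdac3 (8.27 and 1.94 RPKM) and Ezh1 (1.57 and 0.05 RPKM). Ezh2 differed too, at 0.83 and 0.13 RPKM, above and below all MEF libraries (0.26 to 0.48). Its change of 0.05 is thus a mean of opposite differences. Hdac1, at 0.93 and 1.32 RPKM, stayed about its MEF level (0.17 ± 0.26). In these cells 3 of the 12 proliferation markers were called lower, with sums of 26.3 and 44.6 RPKM, and the median of all genes was -0.13, or 0.10 after median centring; their part was not tested.

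From GFP- cells to ESC the gap was wider: 25 of 77 genes were higher (32.5%, against 14.3%) and 1 was lower (1.299%, against 8.35%). The median difference was 0.75 against 0.25 over all genes, and this comparison shares its libraries with the other comparisons. Median centring, which moved the all-gene median from 0.25 to -0.07, left 16 higher and 2 lower, against 8.71% and 12.5% of all genes. With a pseudocount of 0.1, 37 were higher and 3 lower (25.0% and 11.3% of all genes). Proliferation markers again moved, 10 of 12 called higher, and their part was not tested.

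By role, 7 of 16 PRC1 genes were higher in ESC than in GFP- cells (14.3% of all genes were): Cbx2, Cbx7, Pcgf1, Pcgf2, Pcgf6, Phc1 and Rnf2. Phc1 was 8.60-fold higher (log2 2.63 ± 0.33, adjusted p = 0.000769) and Rnf2 6.88-fold (1.53 ± 0.26, adjusted p = 0.00339). Eed differed 25.8-fold (2.03 ± 0.28, adjusted p = 0.00123) and Suz12 4.92-fold (1.61 ± 0.31, adjusted p = 0.00576). Among enzymes, Kdm1a was called here, at 12.1-fold (1.73 ± 0.24, adjusted p = 0.00135), with Kdm3a, Kdm4a and Kdm5b. The largest log2 difference was that of Prmt5, at 0.19 and 1.17 RPKM in GFP- cells and 6.77 to 18.6 RPKM in ESC (2.85 ± 0.44, adjusted p = 0.00211); Prmt1, the main asymmetric arginine methyltransferase, and Prmt7 were also called. The rest were Cbx1, Cbx5, Hdac1, Setd1a, Setd5, Sirt1, Smarcad1, Smarcb1 and Smarcc1.

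Leaving out GFP- 1 left 20 genes higher; Hdac1, Kdm4a, Pcgf1, Pcgf2, Prmt1, Setd1a and Setd5 lost their calls there (0.997, 0.99, 1.15, 1.96, 1.85, 0.97 and 0.79). Pcgf1 was also lost without GFP- 2 (1.40), as was Cbx1 (0.67). Without ESC 1 the losses included Cbx1 and Sirt1 (1.61 and 0.99), without ESC 2 Cbx1 and Pcgf1 (1.62 and 0.996), and without ESC 3 Cbx1, Hdac1 and Pcgf1 (1.86, 0.93 and 1.29). Ezh2 gained a call without GFP- 1 (1.18) and Hdac3 without GFP- 2 (-1.25).

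The library of clusters was single and so without a test. Against GFP- cells, 14 of 77 genes were at least 1 log2 unit higher (18.2%, against 11.4% of all genes) and 5 lower (6.49%, against 13.2%). Of the higher genes, Cbx5, Kdm5b, Pcgf2, Pcgf6, Prmt1, Prmt7 and Suz12 were also called higher in ESC than in GFP- cells, and the rest were not. Both comparisons use the same GFP- libraries, so part of this overlap is built in, and its share over all genes was not computed. Cbx8 stood out at 13.5 RPKM on 559 reads, against 0.12 and 0.19 RPKM in GFP- cells and at most 1.63 RPKM in any other gene-span library. Pcgf6 was at 7.63 RPKM, above ESC (3.08 to 3.54). Sirt7, a nucleolar deacetylase, was at 11.7 RPKM against 0.12 and 3.79 RPKM, Pcgf2 at 3.73 RPKM against 0.15 and 0.75 RPKM, and Cbx5 at 8.44 RPKM against 2.80 and 1.44 RPKM. On the lower side were Bmi1, at 0.71 RPKM against 5.26 and 2.32 RPKM, and Setd8, the lysine 20 methyltransferase of histone H4, at 0.86 RPKM against 4.13 and 3.54 RPKM. Within PRC2 the clusters had Suz12 at 3.14 RPKM with Eed at 0.14 and Ezh2 at 0.05 RPKM, on 1146, 33 and 30 reads. Rescaled to exonic length, Pcgf6 (26.2) and Cbx8 (17.1) were the most abundant PRC1 genes in clusters. The endothelial marker sum was 24.6 RPKM here, nearly all Kdr, against at most 6.13 in the other gene-span libraries; its part was not tested.

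Colonies were again 1 library, in which Cbx8, Pcgf6 and Cbx5 were lower than in clusters, whereas Pcgf2 (4.08 against 3.73 RPKM), Ring1 (6.56 against 1.44), Prmt1 (9.004 against 6.51) and Hdac10 (3.23 against 1.66) were not. Against clusters, 15 of 77 genes were at least 1 log2 unit higher (19.5%, against 27.3%) and 10 lower (12.99%, against 12.6%). Cbx8 was at 1.43 RPKM, inside its MEF range; Pcgf6, at 0.84 RPKM, was above MEF (0.24 to 0.54), and Cbx5, at 1.83 RPKM, below it (2.23 to 5.23). Smarcd3 went from 0.21 to 8.004 RPKM, Hdac6 from 0.23 to 6.78, Prmt6, an arginine methyltransferase of histone H3, from 0.21 to 3.60, and Sirt2, a cytoplasmic deacetylase, from 0.27 to 3.31 RPKM. Eed rose to 2.79 RPKM from 0.14, close to its lowest ESC value of 2.94.

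Set against ESC, colonies had 5 genes at least 1 log2 unit higher (6.49%, against 14.9%) and 15 lower (19.5%, against 9.24%). Phc1 was at 0.83 RPKM on 190 reads, inside the MEF range of 0.67 to 1.73 and far below the ESC range of 13.6 to 18.7. Kdm5b (0.37 against 4.49 to 6.25 RPKM), Suz12 (0.87 against 4.02 to 5.498) and Kdm3a (0.47 against 3.03 to 4.08) were likewise near MEF levels. Cbx1, at 2.56 RPKM, was inside the MEF range. Cbx7 was at 0.65 RPKM, above MEF (at most 0.05) and below ESC (at least 3.09). Higher than in ESC were Smarcd3 (8.004 against at most 0.82 RPKM) and Ring1 (6.56 against at most 3.29 RPKM). Both were nearly as high in MEF 3, of the same library set, at 7.92 and 6.18 RPKM. In MEF 1 they were at 0.88 and 1.11 RPKM, and in MEF 2 at 1.80 and 1.39 RPKM. In the same library the extraembryonic endoderm sum was 171 RPKM and most pluripotency markers were below ESC, with Nanog at 0.04 against 51.7 to 55.4 RPKM and Sox2 at 2.80 against 90.0 to 105 RPKM; their part was not tested.

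For the 13 genes that rose from MEF to ESC, each library's place on that path can be given, 0% being the MEF mean and 100% the ESC mean on the log2 scale. In clusters 5 of the 13 were at or past the midpoint (17.4% of the 846 genes called higher): Cbx5, Kdm5b, Pcgf6, Setd6 and Suz12. Their median over the 13 was 13.6% of the way, against -1.98% for all 846. Setd6 was already at 75.9% in GFP- cells, the only 1 of the 13 past the midpoint there (12.3% of the 846 were). In colonies 2 of 13 were (27.3% of the 846), Eed and Hdac6, with a median of 23.2%, against 19.9% for all 846. The clusters and colonies sets had no gene in common, but they are too small for this to be read as a result. How far such sets overlap over all 846 genes was not computed. Phc1 was at -11.1% in clusters and -7.98% in colonies. Of the 3 genes that fell, none was past the midpoint in clusters (49.5% of the 849 genes called lower) and 1, Hdac7, was in colonies (57.5% of the 849).

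Phc1 led PRC1 in both CiPSC lines and in ESC replicate 4, while the next PRC1 gene was Cbx7 in the lines and Rnf2 in that ESC library. Among demethylases Kdm1a led in the lines and Kdm5b, at 35.3 RPKM against 29.1 and 29.4, in ESC replicate 4. Against that library, limma called 0 of 77 genes (0.122% of all genes were higher and 0.0376% lower); 1 gene, Kdm4c, had an unadjusted p under 0.05 (adjusted p = 0.137), as did 4.76% of all genes. With 1 ESC library the spread is borrowed from the other groups, so this does not show that the levels were equal. Phc1 was at 50.1 and 47.3 RPKM in lines 6 and 11 and 30.7 RPKM in ESC replicate 4. Cbx7 was at 13.96 and 12.97 against 9.18 RPKM, and Cbx8 at 0.26 and 0.31 against 0.28 RPKM. Hdac1 was at 69.0 and 70.5 against 55.5 RPKM, Hdac2 at 21.3 and 21.4 against 19.9, and Hdac3 at 10.6 and 11.0 against 9.17 RPKM. Suz12 (21.2 and 20.6 against 21.1 RPKM), Eed (25.3 and 27.5 against 23.4), Ezh2 (24.9 and 24.0 against 21.6) and Kdm1a (31.3 and 31.7 against 28.2) lay close together.

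Both lines were above ESC replicate 4 for 51 of 77 genes (48.2% of all genes) and below it for 18 (41.3%). More than 1.5 times apart were 6 genes upward (8.88% of all genes) and 3 downward (7.40%): Kdm4c, Pcgf1, Phc1, Phc3, Setd7 and Sirt4, and Prmt6, Ring1 and Smarcd3. Smarcd3 was at 0.81 and 0.87 RPKM in the lines and 3.23 RPKM in ESC replicate 4. The fibroblast marker Col1a1 was at 0.72 and 0.18 RPKM in the lines and 6.58 RPKM in that library. Col1a2, Col3a1, Thy1 and Postn were also higher there, and Fn1 and Twist1 were not. The part of fibroblast transcripts was not tested, and strain cannot be told apart from cell type here. The lines differed from each other by a median of 0.05 and at most 0.21 on the log2 scale.

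**Figure D5:**
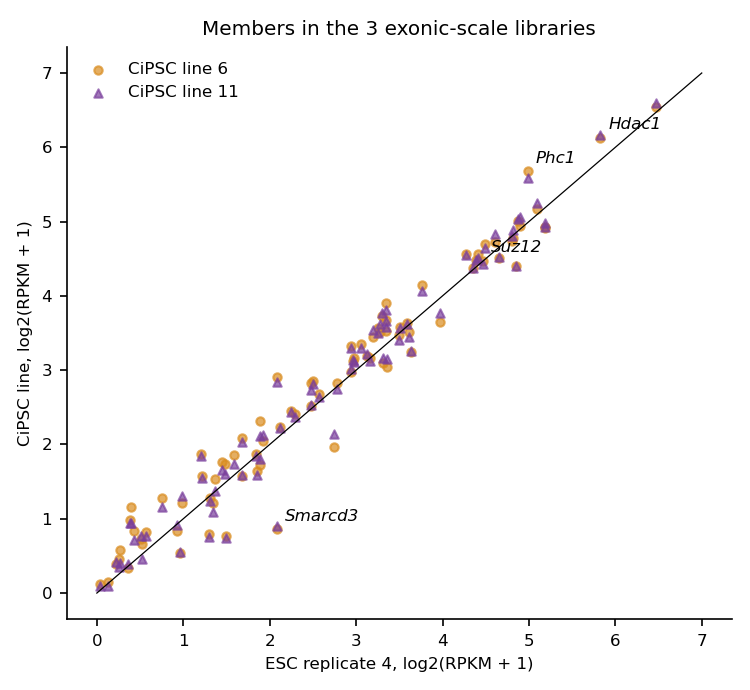
log2(RPKM + 1) of all 86 genes in CiPSC line 6 (circles) and line 11 (triangles) against ESC replicate 4, the 3 libraries on the exonic length scale; the line marks equal values. Phc1 lies above the line at 50.1 and 47.3 against 30.7 RPKM, and Smarcd3 below it at 0.81 and 0.87 against 3.23 RPKM.

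Genes of the same complexes outside the symbol rule were counted with the same fits. Of the 120 tested in 7 lists, 24 rose between MEF and ESC and 1 fell, against 7.95% and 7.97% of all genes. Between MEF and ESC, 3 of 7 PRC2 accessory genes tested rose and none fell: E130012A19Rik, the older symbol of the PRC2 partner Epop (4.96 ± 0.34), Mtf2, which recruits PRC2 to CpG islands (2.22 ± 0.27), and the histone chaperone Rbbp4 (1.02 ± 0.23). E130012A19Rik averaged 0.50 RPKM in MEF, 0.10 in clusters, 148 in colonies and 45.5 in ESC, so colonies exceeded ESC for it while Phc1 stayed low. Of 21 PRC1 partners 6 rose, led by L3mbtl2 (1.94 ± 0.28), Rybp (1.2998 ± 0.19) and Usp7 (1.39 ± 0.20), and none fell. Of 26 deacetylase corepressors 5 rose, among them Rcor2, a Kdm1a partner (2.97 ± 0.65), Sin3a (1.16 ± 0.25) and Sap30 (1.46 ± 0.42), and none fell. Of 27 other histone methyltransferase genes 6 rose, with Prdm14 (1.47 ± 0.12), Ash2l (1.79 ± 0.26) and Nsd1 (1.49 ± 0.25) first by p, and none fell. Of 15 other BAF subunits Arid1a (1.46 ± 0.24) and Actl6a (1.37 ± 0.31) rose, of 14 acetyltransferase genes Hat1 (1.74 ± 0.26) and Myst2 (1.40 ± 0.22), and of 10 other jumonji genes Hr fell (-1.60 ± 0.27). In GFP- cells against MEF no gene of the 7 lists was called higher, and 7 of the 120 (5.83%) were called lower, against 3.53% and 4.09% of all genes, Rbbp4 (-1.504 ± 0.25) and Rbbp7 (-1.85 ± 0.43) among them.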

How the data were processed

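The authors deposited 1 table of RPKM values for 13 mouse RNA-seq libraries; TopHat 1.3.0 and build mm9 are named per the submitters' processing notes. Counting tool, annotation and strand handling: not given in the sources used here. Gene spans and exonic lengths came from GENCODE vM21. In the 10 gene-span libraries 82.5% to 84.4% of low values were whole reads at a tolerance of 0.05 reads, which gave the depth; it is unknown for the other 3. RPKM was tested as log2(RPKM + 1) with limma 3.58.1 in R 4.3.3 over all 13 libraries, 1 coefficient per group and a length-scale term, with trend and Benjamini-Hochberg adjustment over 10647 genes with at least 1 RPKM in 2 libraries; 6 residual degrees of freedom. The test was checked on simulated data. Clusters and colonies were described only. 8 rows sharing 1 identifier were left out. Text names the compound targets, paralog pairs, called genes, the 8 largest single-library differences at 3 RPKM or more, and 3 called genes per companion list. The genes and lists were chosen with earlier results of these data known. Alternatives included another pseudocount, other scalings, fewer libraries and a replicate block. 1 member is counted but not reported here.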

Additional observations from a re-analysis of the deposited data

How the results depend on the processing

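No called gene changed direction in any alternative run. Some changes that were not called did change sign between settings. Hdac3 ran from -1.25 to 0.40 between ESC and GFP- cells, and from -0.27 to 1.39 between GFP- cells and MEF. Ezh2 ran from -0.30 to 0.40 between GFP- cells and MEF. Called genes between ESC and MEF (16) were 29 with no minimum change, 28 with a pseudocount of 0.1 and 7 with the replicate block, and 13 to 18 leaving out 1 library. Between GFP- cells and MEF (2) they were 0 with gene-span libraries only, 0 with labelled replicates 1 and 2 without the block, 0 with the replicate block, 1 each with median centring, quantile normalization or a term for the library set, 11 with a pseudocount of 0.1, 8 on a reads-per-million scale, and 0 to 6 leaving out 1 library. Between ESC and GFP- cells (26) they were 40 with a pseudocount of 0.1, 40 on the reads-per-million scale, 16 with the replicate block and 20 to 27 leaving out 1 library. CiPSC against ESC replicate 4 gave 1 with exonic libraries only, Smarcd3, where the spread comes from the 2 lines and says nothing of ESC. With a pseudocount of 0.1 the genes past 1 log2 unit were 39 for clusters against GFP- cells, 53 for colonies against clusters and 38 for colonies against ESC. No all-gene share is given for these single-library counts. Counts in this section show how the number of members depends on the setting, not how these genes compare with all genes. The reads-per-million scale and the labelled replicates without the block were chosen after seeing the data. The replicate numbers share no stated culture, and deviations of same-numbered libraries correlated at -0.04 (MEF and GFP-), -0.07 (MEF and ESC) and 0.08 (GFP- and ESC), so the libraries share only a number. For single genes that were called, 603 alternatives kept the call and 117 lost it; for those not called, 325 stayed so and 16 gained a call. Phc1, Cbx7, Kdm3a, Kdm5b and Pcgf6 were called between ESC and MEF in all alternatives run. Genes at a few reads, such as Cbx8 in ESC, are limited by depth.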
